A study of Homo sapiens with 38 samples.

Results

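The comparison described here set human naive pluripotent stem cells against the same cells after 4 days in N2B27 medium, in 2 experiments run separately (Ex1 and Ex2). The comparison and the gene lists below were chosen with earlier results of these data known. Its libraries were taken by their labels: 4 libraries of N2B27 at day 4 on Geltrex (2 of each experiment) and 6 libraries of naive cells at day 0 (2 on serum coating and 2 on Geltrex in Ex1, 2 on Geltrex in Ex2), which makes 10 of the 38 libraries of the study. All came from 1 cell line, the human embryonic stem cell line Shef6, which had been adapted to growth on serum without feeder cells. Naive cells were held in PXGL, which is N2B27 with the MEK inhibitor PD0325901, the tankyrase inhibitor XAV939, the protein kinase C inhibitor Gö6983 and the cytokine LIF (the medium tag of the labels reads PXGLY). For the N2B27 groups, naive cells were plated on Geltrex, a basement membrane matrix, in N2B27 with a ROCK inhibitor, and were kept from day 1 in N2B27 without it, so that every PXGL component was withdrawn at once and no growth factor was added in its place. The titles and time tags of the Ex2 naive libraries say day 0, whereas their library names carry d4 and the day on which they were collected is not known beyond that.

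Naive pluripotent cells resemble the epiblast of the blastocyst before implantation. When MEK is inhibited they hold ERK signalling down, and they express a set of transcription factors, among them KLF17, TFCP2L1 and SPIC, that are low or absent in the post-implantation epiblast. On release from the inhibitors the cells pass through a formative state, in which general pluripotency factors stay on, naive factors go down, de novo DNA methylation is set up and the cells gain the ability to respond to signals for the germ layers.

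RNA was measured by 3′ tag sequencing (QuantSeq), which reads each transcript near its polyadenylated end, so that a count does not scale with transcript length. The 10 libraries held 3038046 to 5612354 counts, with 21018 to 24759 genes detected, 2.21 to 3.48% of counts from mitochondrial genes and 8.50 to 12.4% from ribosomal protein genes, the highest shares of the latter being those of the Ex2 naive libraries. Replicate libraries of a group correlated at 0.983 to 0.990 (Pearson's r across genes, log2 scale), and none differed by as little as sampling noise alone. Levels are given in CPM (a gene's count relative to the library total, scaled between libraries by the TMM method). Of 57133 genes in the table, 22400 had no count in these libraries and 14245 passed a filter on low counts and were tested. A gene was called when the edgeR quasi-likelihood test, with experiment as a covariate, gave a Benjamini-Hochberg adjusted p under 0.05 and an absolute log2 fold change above 1. Log2 fold changes are N2B27 over naive. The ± value is the absolute log2 fold change (or difference) divided by the square root of the test's F statistic. It is not a standard error from the fit and can be too small for genes near 0 in a group. The study calls its replicates technical in some legends and biological in another. P-values of the pooled fit measure the spread between parallel libraries and between the changes of 2 experiments of 1 line. Those of each experiment alone, and of the difference between experiments, measure only the spread between libraries of the same state and experiment.

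Medium and day go together in these libraries and cannot be told apart. Principal component 1 (65.4% of the variance) placed the N2B27 libraries between 58.8 and 62.3 and the naive libraries between -46.6 and -36.0. The second held 14.8% and spread the naive libraries from -42.0 and -36.8 (Ex2, Geltrex) over 11.8 and 13.1 (Ex1, Geltrex) to 25.7 and 36.2 (Ex1, serum), whereas the 4 N2B27 libraries lay between -9.08 and 4.64. Over 9153 genes with a mean of at least 10 CPM, the root mean square log2 difference was 0.300 between the N2B27 groups of the 2 experiments, 0.436 between the naive groups on Geltrex, and 0.793 to 0.915 between N2B27 and naive groups. The N2B27 groups of the experiments were thus closer to each other than the naive groups on Geltrex were, while the serum and Geltrex naive groups of Ex1 differed by 0.276.

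In the pooled fit 2406 genes were called (16.9% of those tested), 1529 higher (10.7%) and 877 lower (6.16%) in N2B27. Of these, 2388 had the same sign in each experiment (16.8% of the genes tested), 1519 higher and 869 lower, and 18 had not. The 1529 genes called higher made up 1.92 to 2.03% of all CPM in the naive libraries and 6.96 to 7.09% in N2B27. The 877 genes called lower went from 3.51 to 3.74% in naive libraries to 1.28 to 1.35%. The median log2 fold change over all genes tested was -0.01, and the groups did not overlap for 4177 genes (29.3%), 2103 of them called.

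Read separately, Ex1 gave 2456 calls (17.2% of genes tested) and Ex2 gave 3214 (22.6%); the 2 experiments shared no library. There were 1559 genes called in both with the same sign, which is 63.5% of the Ex1 calls and 48.5% of the Ex2 calls, and 20 called in both with opposite signs. Of the Ex1 calls 90.9% had the same sign in Ex2, and of the Ex2 calls 86.9% had the same sign in Ex1, where 68.4% of all tested genes did. Across genes, which are not independent replicates, the log2 fold changes of the experiments correlated at a Pearson's r of 0.745 and a Spearman's rho of 0.560.

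**Figure D1:**
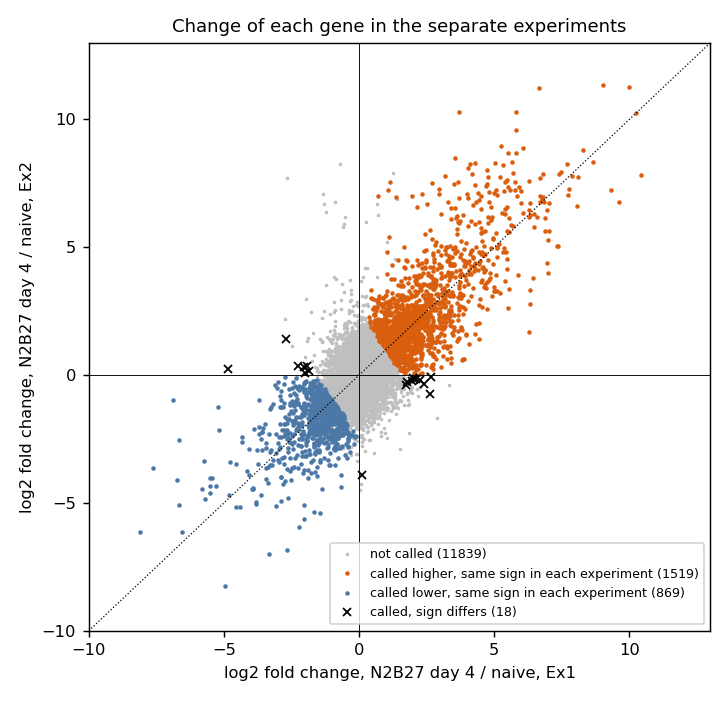
Log2 fold change of each tested gene (N2B27 day 4 over naive) in Ex1 (x axis) against Ex2 (y axis), each dot 1 gene, coloured by the call of the pooled fit, with the dotted line marking equal change. The 1519 genes called higher and the 869 called lower with the same sign lie in opposite quadrants along the line, and the 18 crosses are called genes whose signs differ.

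The list with the highest median was that of ERK feedback regulators and immediate targets, genes that the kinase ERK switches on within its own pathway. All 16 tested members of the list (18 listed) rose, in each experiment taken alone as well, with a median log2 fold change of 4.50 beside -0.01 over all genes. In the pooled fit 10.7% of all tested genes were called higher. Their summed level was 62.2 to 68.5 CPM in naive libraries and 1055 to 1157 CPM in N2B27. The sums of the groups did not overlap. A gene near 0 in naive cells passes the filter on low counts only through N2B27, in this and in every list below, so that such genes lean the counts over tested members towards rises. A gene near 0 in N2B27 passes only through naive cells, and such genes lean the counts towards falls.

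SPRY4 (chromosome 5, 142310427 to 142326455, minus strand, GRCh38), a Sprouty protein that inhibits receptor tyrosine kinase signalling, had no count in any naive library and 35.97, 31.6, 32.8 and 35.9 CPM in the 4 N2B27 libraries (Ex1 first, as in all such lists). Set against a floor of 3 counts per library it was at least 33.1-fold higher (adjusted p = 3.8e-08). SPRY2, of the same family, was at 7.07 to 10.9 CPM (median 8.34) in naive cells and at 51.8, 57.98, 60.1 and 60.3 CPM in N2B27 (adjusted p = 2.4e-09). Both were lower in every naive library than in any N2B27 library. SPRY1, the third Sprouty gene listed, was called higher with an uneven change, of 3.26 in Ex1 and 1.07 in Ex2 on the log2 scale.

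DUSP6, the phosphatase that acts on ERK in the cytoplasm, was at 0 to 0.544 CPM (median 0.222) in naive libraries and at 71.6, 71.7, 25.96 and 21.5 CPM in N2B27, higher in Ex1 than in Ex2. DUSP4, a nuclear phosphatase of the same kinases, had 3 counts in all naive libraries together and stood at 49.9, 56.7, 61.2 and 57.1 CPM in N2B27. Ratios of summed counts came to 189 (95% exact interval 91.4 to 471) for DUSP6 and to 475 (162 to 2308) for DUSP4, and these intervals cover counting error only. Both rises passed the test (adjusted p = 2.0e-11 and 8.0e-11).

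The ETS transcription factors ETV4 and ETV5, which ERK signalling induces, went from 5.08 to 12 CPM (median 6.67) to 70.5, 81.2, 84.2 and 95.7 CPM and from 0 to 1.81 CPM (median 1.10) to 66.7, 73.3, 57.5 and 61.2 CPM. Their log2 fold changes were 3.41 ± 0.15 and 6.02 ± 0.24. FOS and EGR1, immediate early transcription factors, rose from 0.222 to 1.11 CPM to 22.04, 26.7, 22.8 and 18.8 CPM and from 0.445 to 0.687 CPM to 7.93, 7.68, 5.30 and 2.17 CPM. The EGR1 change (3.39 ± 0.35 on the log2 scale, adjusted p = 3.1e-06) was 3.70 in Ex1 and 2.53 in Ex2, a difference that did not pass the test (adjusted p = 0.4). CCND1, the cyclin D1 gene, stood at 1.37 to 6.53 CPM in naive and at 87.6, 93.3, 59.6 and 50.9 CPM in N2B27 libraries.

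EGR1 is known as a target of serum response factor, whose binding motif is the CArG box (CC, 6 bases of A or T, GG), and its promoter is shown because it carries that motif more than once. In the RefSeq promoter table (GRCh38.p14, from 250 bases before to 50 after the start) the EGR1 window had the following CArG boxes, given with 9 flanking bases on each side and the motif in capitals, on the plus strand at chr5:138465365-138465392 and chr5:138465387-138465414.
EGR1, 105 bases before the start: ccggtcctgCCATATTAGGgcttcctgc
EGR1, 83 bases before the start: tcctgcttcCCATATATGGccatgtacg
Of the 16 tested ERK list genes, 2 had a CArG box within the same distance of the start of their canonical transcript (hg38, GENCODE release 44), as did 0.989% of the promoters of all tested genes. A match of letters is not evidence of binding.

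**Figure D2:**
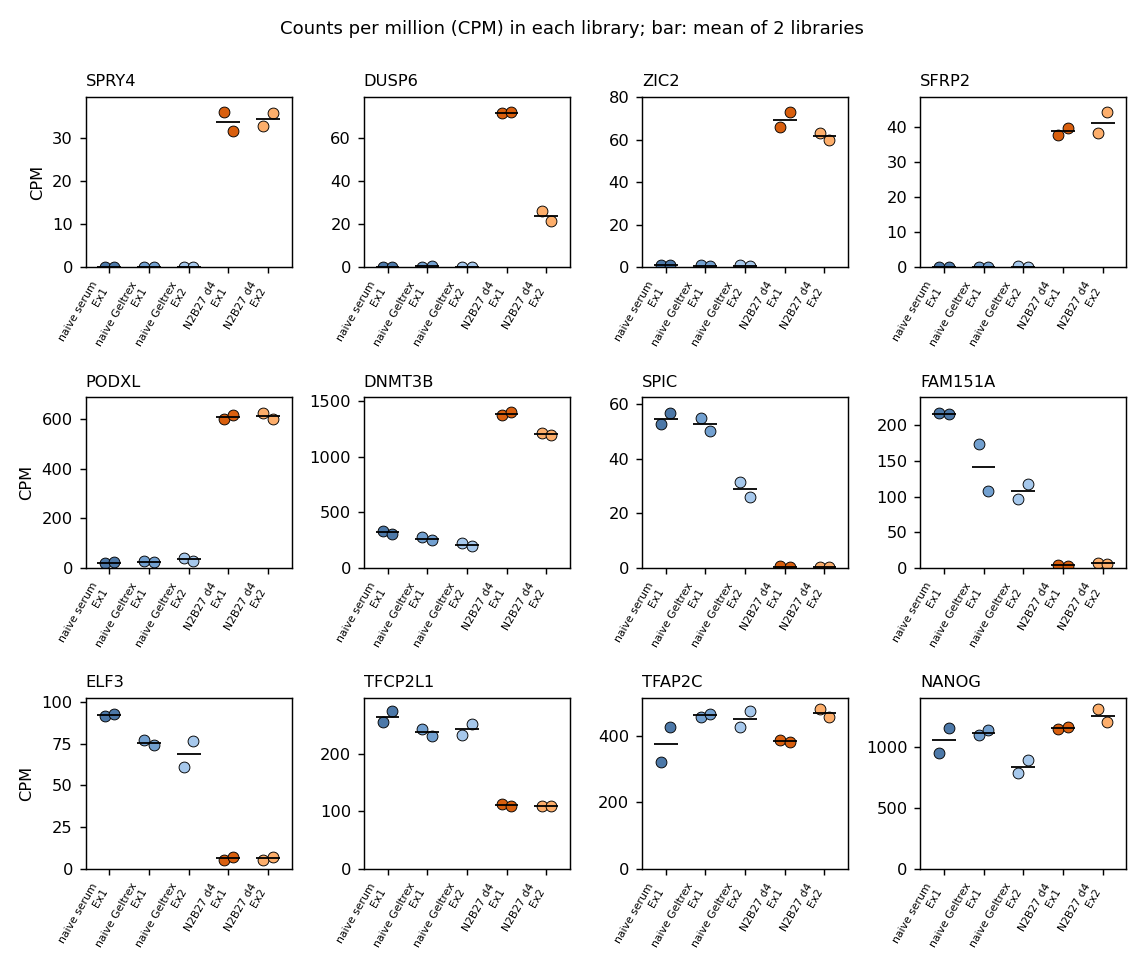
CPM of 12 genes (y axis, from 0) in each of the 10 libraries by group (x axis), with points for libraries and bars for the mean of 2. SPRY4, DUSP6, ZIC2, SFRP2, PODXL and DNMT3B were higher in all 4 N2B27 libraries than in any naive one, SPIC, FAM151A, ELF3 and TFCP2L1 lower, and the groups overlapped for TFAP2C and NANOG.

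Markers of the formative and primed states rose with them. Of 19 tested members of that list 15 were called higher, also in each experiment alone, and none lower, with a median log2 fold change of 4.44. All tested genes gave 10.7% higher and 6.16% lower in the pooled fit. This list shares DUSP6 with the ERK list, and the study itself uses some of its members, ZIC2 among them, as markers of primed cells, so that their direction is not independent evidence. OTX2, TCF7L1, GRHL2 and LIN28B were not called.

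ZIC2, a zinc finger transcription factor of the post-implantation epiblast, stood at 0.558 to 1.03 CPM (median 0.879) in naive and at 66.1, 72.8, 63.04 and 60.02 CPM in N2B27 libraries (log2 fold change 6.31 ± 0.16). SALL2, another zinc finger factor, went from 16.01 to 23.4 CPM (median 21.5) to 117, 117, 102 and 99.1 CPM. SOX11, a SoxC transcription factor, went from 0.667 to 1.74 CPM (median 1.62) to 148, 154, 158 and 145 CPM. For each of these the groups did not overlap.

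PTPRZ1, a receptor tyrosine phosphatase, had 1 count in all naive libraries together and 85.3, 77.7, 75.2 and 63.2 CPM in N2B27. THY1 (CD90), a glycoprotein used to sort primed from naive cells, had 2 counts in naive libraries and 73.5, 66.03, 78.4 and 65.8 CPM in N2B27. SFRP2, a secreted WNT antagonist, had 1 naive count and 37.7, 39.7, 38.1 and 44.1 CPM. The ratios of summed counts had 95% exact lower limits of 350.3 for PTPRZ1, 249.99 for THY1 and 182 for SFRP2.

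PODXL, the sialomucin that carries the TRA-1-60 epitope, rose from 20.7 to 41.2 CPM (median 26.1) to 602, 617, 626 and 603 CPM (log2 fold change 4.44 ± 0.12). CD24, a surface marker higher in primed cells, rose from 53.9 to 128 CPM (median 107) to 787, 800.2, 820.00 and 769 CPM. CDH2, the N-cadherin gene, was still low, at 0.181 to 1.78 CPM in naive and 6.88, 4.57, 13.8 and 13.3 CPM in N2B27 cells, although called (adjusted p = 4.0e-05). OTX2, an early factor of the formative state in mouse, was at 1.12 to 6.17 CPM (median 4.50) and 8.11, 7.32, 6.09 and 6.75 CPM, with a log2 fold change of 0.97 ± 0.28 in the pooled fit, just under the threshold, which it passed without either N2B27 library of Ex1 (1.11 and 1.18) or either Geltrex naive library of Ex1 (1.03 and 1.07). The OTX2 change was 0.55 in Ex1 and 2.04 in Ex2 (adjusted p of the difference = 0.046, lost in 12 of 18 other settings, with adjusted p up to 0.23), with means of 4.50, 5.97 and 1.59 CPM in the naive groups (serum and Geltrex of Ex1, Geltrex of Ex2).

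Of 12 tested general pluripotency factors, DPPA2 and L1TD1 rose and none was called lower, where 10.7% of all tested genes were called higher and 6.16% lower. POU5F1 was at 339 to 563 CPM (median 377) in naive and at 419, 475, 509 and 579 CPM in N2B27 libraries, NANOG at 781 to 1157 CPM (median 1023) and 1143, 1161, 1307 and 1206 CPM, and SOX2 at 167 to 273 CPM (median 264) and 242, 234, 243 and 244 CPM; in all 3 the groups overlapped and no call was made. L1TD1, an RNA-binding protein encoded by a domesticated transposon gene, rose from 269 to 575 CPM (median 489) to 1509.5, 1374, 1493 and 1464 CPM. DPPA2, a chromatin protein of pluripotent cells, rose from 18.98 to 37.2 CPM (median 24.2) to 130.5, 114, 95.6 and 102 CPM (log2 fold change 2.22 ± 0.13).

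Naive transcription factors split. Of 13 tested, KLF4, KLF5, KLF2, TFCP2L1, TBX3 and SPIC fell, GBX2 and NR5A2 rose, and KLF17, TFAP2C, ARGFX, PRDM14 and VENTX were not called. Beside them, 6.16% of all tested genes were called lower and 10.7% higher. The list's median log2 fold change was -0.54. Of the 8 calls, 4 were also made in each experiment alone.

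SPIC (chromosome 12, 101475336 to 101486997, plus strand, GRCh38), an ETS-family factor and the largest fall of those ranked here, went from 25.96 to 56.7 CPM (median 51.5) in naive cells to 0.705, 0.366, 0.265 and 0.482 CPM in N2B27 (log2 fold change -6.43 ± 0.22, adjusted p = 4.0e-11). TFCP2L1 went from 231 to 275 CPM (median 249) to 114, 110.3, 109 and 109 CPM, a change of -1.17 in Ex1 and -1.16 in Ex2. KLF5 and TBX3 went from 166 to 255 CPM to 76.01 to 89.6 CPM and from 68.9 to 137 CPM to 31.5 to 41.7 CPM. These factors were reduced in every N2B27 library, and the fit put the fall at 2.24-fold for TFCP2L1, 2.42-fold for KLF5 and 2.74-fold for TBX3.

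KLF17, the factor most used to mark human naive cells, was at 37.1 to 127 CPM (median 75.97) in naive and 62.1, 58.9, 75.7 and 76.9 CPM in N2B27 libraries, so that its level at day 4 lay inside the naive range. Its change was -0.67 in Ex1 (adjusted p = 0.02) and 0.93 in Ex2 (adjusted p = 0.011), and the difference passed the test (1.61 ± 0.35, adjusted p = 0.0056). KLF4 changed by -2.32 in Ex1 and -0.11 in Ex2, with means of 163, 109 and 62.8 CPM in the 3 naive groups and 27.2 and 58.1 CPM in N2B27 of Ex1 and Ex2. Its pooled call (log2 fold change -1.34 ± 0.35) was lost without either N2B27 library of Ex1 (-0.968 and -0.998), and for KLF4, KLF2 and NR5A2 the groups overlapped. TFAP2C, an AP-2 factor shared by naive cells and trophectoderm, stood at 323 to 477 CPM (median 444) and 388, 384, 483 and 457 CPM. GBX2, a homeobox factor, rose from 0 to 0.907 CPM to 18.5, 16.8, 20.7 and 21.7 CPM, and NR5A2, an orphan nuclear receptor, was called with a log2 fold change of 1.12 ± 0.20, a call lost with no experiment covariate (0.93).

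Of 17 other naive markers tested 7 fell and 1 rose, with a median of -0.80, beside 6.16% lower and 10.7% higher of all tested genes. DNMT3L, a catalytically inactive DNA methyltransferase partner, went from 261 to 362 CPM (median 349) to 104, 103, 108 and 117 CPM, and DPPA5, an RNA-binding protein of naive cells, from 405 to 543 CPM (median 438) to 243, 229, 235 and 191 CPM. The DPPA5 change was -1.01 ± 0.10, at the edge of the threshold, and its call was lost without 1 of 3 libraries, naive serum Ex1 replicate 2 (-0.99), N2B27 Ex2 replicate 2 (-0.93) or naive Ex2 replicate 1 (-0.91), and in 4 other settings. DPPA3, the STELLA gene, stood at 209.9 to 305 CPM (median 273) and 362, 369, 350.1 and 379 CPM and SUSD2, a surface marker of naive cells, at 81.4 to 124 CPM (median 91.9) and 106, 122, 129.8 and 141 CPM, with neither called. ALPG, OLAH, FAM151A, FGF4 and KHDC1L were the others that fell, and ZFP57, a zinc finger protein that guards imprints, rose from 16.01 to 23.9 CPM to 48.3, 48.3, 44.2 and 48.9 CPM. None of the 5 tested maternal complex genes was called; NLRP7 stood at 2085 to 3371 CPM in naive and 1469 to 1541 CPM in N2B27 cells (log2 fold change -0.86 ± 0.09), and KHDC3L at 252 to 299.97 CPM and 395 to 459 CPM.

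The libraries labelled N2B27 day 4 thus held KLF17, TFAP2C and SUSD2 at levels that overlapped the naive range together with formative markers above it. In bulk RNA a mixture of cells in different states cannot be told apart from cells that hold both sets, and fewer cells of a type cannot be told apart from less RNA per cell.

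Of 11 tested genes of DNA methylation and demethylation 2 rose (DNMT3B and ZFP57) and 2 fell (DNMT3L and TET2), all 4 in each experiment alone, beside 10.7% higher and 6.16% lower over all tested genes. DNMT3B, the de novo enzyme of the post-implantation epiblast, rose from 196 to 332 CPM (median 264) to 1371, 1399, 1215 and 1195 CPM (log2 fold change 2.37 ± 0.09, adjusted p = 9.1e-11). DNMT3A, its paralogue, was at 140.3 to 159 CPM and 232 to 257 CPM with a log2 fold change of 0.74 ± 0.07, below 1. DNMT1, the maintenance enzyme, was at 95.5 to 175 CPM and 211 to 236 CPM, and its partner UHRF1 at 54.7 to 135 CPM and 58.3 to 68.2 CPM. TET2, which oxidises methylcytosine, fell from 8.65 to 57.4 CPM (median 32.96) to 3.35, 4.21, 2.12 and 3.37 CPM (log2 fold change -2.99 ± 0.32), whereas TET1 stood at 238 to 359 CPM and 381 to 428 CPM and was not called.

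Of 11 tested genes of polycomb repressive complex 2, which methylates histone H3 at lysine 27, 1 was called, JARID2, beside 16.9% of all tested genes. JARID2, an accessory subunit that recruits the complex, rose from 248 to 286 CPM (median 274) to 1279.8, 1274, 1107 and 1116 CPM (log2 fold change 2.15 ± 0.07). The core subunits stood at 122 to 222 CPM and 176 to 209 CPM for EZH2, 63.2 to 81.8 CPM and 58.3 to 64.6 CPM for EED, and 241 to 316 CPM and 213 to 235 CPM for SUZ12. HELLS, a chromatin remodeller needed for DNA methylation, and TERF1, a telomere-binding protein, were picked after their values were seen as abundant genes that rose, from 402 to 507 CPM to 909 to 1018 CPM and from 225 to 314 CPM to 904 to 1137 CPM.

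Among ligands and receptors of the FGF pathway, 3 of 9 tested rose and 1 fell, each in both experiments alone, against 10.7% higher and 6.16% lower of all tested genes. FGF2, the ligand that sustains primed cells, rose from 23.01 to 29.6 CPM (median 27.1) to 303, 287, 436 and 399 CPM (log2 fold change 3.66 ± 0.11), and FGF19 from 0 to 1.37 CPM to 12.4 to 16.1 CPM. FGF4, a ligand of the pre-implantation epiblast, fell from 299 to 386 CPM to 159.6, 155, 161 and 156 CPM. FGFR1, the main FGF receptor of epiblast cells, rose from 73.99 to 96.3 CPM to 433, 436, 345 and 398 CPM, while FGFR2, FGFR3 and FGFR4 were not called. The medium itself had no FGF2 added.

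Of 14 tested Nodal pathway genes, SMAD7 and LEFTY1 rose, 1 fell and 11 were not called, near the shares of all tested genes (10.7% higher, 6.16% lower). NODAL stood at 93.1 to 216 CPM (median 167) and 171, 185, 174 and 173 CPM, and its coreceptor TDGF1 at 98.3 to 189.6 CPM (median 176) and 254, 232, 233 and 253 CPM (log2 fold change 0.77 ± 0.13). LEFTY1 and LEFTY2, secreted Nodal antagonists that lie side by side, were at 18.2 to 85.8 CPM (median 62.9) and 134, 132, 83.7 and 89.9 CPM, and at 26.4 to 122 CPM (median 85.96) and 53.4, 60.5, 41.6 and 47.7 CPM. LEFTY1 was called (log2 fold change 1.21 ± 0.18) although its groups overlapped and the call was lost with no experiment covariate (0.94), and LEFTY2 was not (-0.48 ± 0.23).

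BMP ligands moved in opposite directions. BMP2 fell from 12.4 to 55.6 CPM (median 41.2) to 0.529, 0.366, 0.530 and 0.482 CPM (log2 fold change -6.12 ± 0.33, adjusted p = 3.9e-09), while BMP4 rose from 10.7 to 13.9 CPM (median 12.8) to 56.6, 54.1, 68.9 and 73.8 CPM and BMP7 from 1.09 to 2.51 CPM (median 1.81) to 22.9, 19.9, 16.7 and 13.3 CPM. Of its targets, ID3, an inhibitor of basic helix-loop-helix factors, rose from 1.11 to 1.63 CPM to 55.2, 69.9, 35.8 and 42.7 CPM, and ID1, of the same family, from 17.2 to 84.03 CPM to 104, 117, 120.2 and 140.3 CPM. The ID1 change was uneven, at 0.63 in Ex1 and 2.60 in Ex2 on the log2 scale, a difference that was called (1.98). ID2 (log2 fold change 0.63), ID4 (0.69), BAMBI (0.74) and MSX2 (0.08) were not called. In all 7 of 14 tested genes were called higher and BMP2 alone lower, where all tested genes gave 10.7% higher and 6.16% lower.

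XAV939, which PXGL contains, holds WNT/β-catenin signalling down. Of 10 tested WNT genes 3 rose and 1 fell (all tested genes, 10.7% higher and 6.16% lower). SP5, a direct target of β-catenin, rose from 0.279 to 3.04 CPM to 24.5, 26.2, 11.7 and 22.9 CPM and WNT5B from 8.93 to 13.6 CPM to 35.1, 37.5, 31.3 and 31.3 CPM. AXIN2, the most used target, stood at 18.4 to 55.8 CPM (median 34.8) and 43.6, 42.4, 36.6 and 37.6 CPM and was not called (log2 fold change 0.37 ± 0.18, adjusted p = 0.12). LEF1 did not pass the filter, with at most 0.445 CPM in naive and 0.723 CPM in N2B27 libraries. SFRP1, a WNT antagonist, fell from 46.9 to 89.6 CPM to 7.41, 8.41, 4.50 and 4.82 CPM, opposite to its paralogue SFRP2.

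Of 10 tested genes of LIF and STAT3 signalling 2 rose and 2 fell, where 10.7% higher and 6.16% lower was the share over all tested genes. SOCS3, a feedback inhibitor that STAT3 induces, rose from 0.434 to 1.81 CPM to 11.6, 11.7, 18.8 and 18.3 CPM (log2 fold change 3.68 ± 0.28), and PIM1, a kinase, from 92.3 to 204 CPM to 308, 379, 278 and 273 CPM. SOCS2 and BCL3 fell, from 14.1 to 25.1 CPM to 3.66 to 6.51 CPM and from 19.3 to 42.7 CPM to 4.50 to 8.05 CPM. The receptor subunits LIFR (8.09 to 11.1 CPM and 7.71 to 12.4 CPM) and IL6ST (57.7 to 86.5 CPM and 54.1 to 72.1 CPM) were not called.

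Targets of the YAP and TEAD factors, which respond to spreading and stiffness, rose in 11 of 15 tested cases (10.7% of all tested genes), with none lower, a median log2 fold change of 2.06 and a summed level of 239 to 281 CPM in naive and 816 to 895 CPM in N2B27 libraries. CYR61 (now CCN1) rose from 3.63 to 13.5 CPM (median 11.6) to 153, 152, 131 and 137 CPM, CTGF (now CCN2) from 5.58 to 12.4 CPM (median 9.24) to 91.3, 93.1, 58.5 and 67.97 CPM and AMOTL2, which restrains YAP, from 2.23 to 8.67 CPM (median 4.86) to 176, 188, 116 and 154 CPM. CYR61 had means of 12.3 CPM in naive cells on serum and of 12.4 and 4.73 CPM in those on Geltrex. ANKRD1, at 0 or 1 count in naive libraries, reached 3.88, 3.11, 1.85 and 3.37 CPM.

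Of 15 tested genes of adhesion and intermediate filaments 6 rose in each experiment, beside 10.7% of all tested genes in the pooled fit. KRT18 and KRT8, the simple keratins, rose from 17.6 to 22.9 CPM (median 19.8) to 447, 487, 498 and 563 CPM and from 12.7 to 28.9 CPM (median 18.5) to 148, 167, 201 and 178 CPM. VIM, the vimentin gene, had 3 naive counts in all and 9.70, 10.97, 22.8 and 20.5 CPM, higher in Ex2 than in Ex1. CDH1, the E-cadherin gene, stood at 539.9 to 686 CPM and 345 to 412 CPM (log2 fold change -0.66 ± 0.07, not called). Among 16 tested basement membrane and integrin genes 7 rose, against the same 10.7%: COL4A1 from 4.12 to 9.11 CPM to 24.7 to 29.7 CPM, COL4A2 from 5.64 to 7.21 CPM to 20.2 to 28.7 CPM and NID1, the nidogen that links collagen IV to laminin, from 3.63 to 5.50 CPM to 20.01 to 26.7 CPM. LAMA1 and ITGA6 were not called, at 29.8 to 41.9 CPM and 21.98 to 32.2 CPM and at 47.5 to 113 CPM and 133 to 150.2 CPM. CAV1, the caveolin 1 gene, had one of the largest rises of all, from 0.558 to 1.11 CPM to 196, 228, 230.4 and 252 CPM (log2 fold change 7.84 ± 0.14).

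Markers of other lineages moved unevenly. For trophectoderm, GATA3 rose from 0.687 to 4.89 CPM (median 2.43) to 24.9, 24.3, 25.7 and 32.5 CPM, whereas CDX2 fell (1.30 to 3.43 CPM to 0.882, 0.732, 0.265 and 0 CPM), and the summed level of the 5 tested markers was 14.7 to 22.9 CPM in naive and 39.99 to 45.3 CPM in N2B27 libraries. For the hypoblast, GATA4, SOX17 and PDGFRA did not pass the filter, their highest values being 4.02, 0.529 and 4.24 CPM, all in N2B27, and HNF4A fell from 5.56 to 12 CPM to 0.366 to 1.59 CPM. Of 3 tested amnion markers 1 was called higher, 1 lower and BAMBI was not called, where all tested genes gave 10.7% higher and 6.16% lower. IGFBP3, an insulin-like growth factor binding protein, had 3 counts in the 6 naive and 137 in the 4 N2B27 libraries, a ratio of 61.3 (95% interval 20.6 to 301.2, counting error only). ISL1 was called lower, at 3.63 to 9.33 CPM and 2.17 to 4.50 CPM, with overlapping groups (log2 fold change -1.18 ± 0.29, -0.96 and not called without N2B27 Ex1 replicate 2), and VTCN1 had 1 count in the 10 libraries.

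Primitive streak and mesoderm genes were called higher in 4 of 5 tested cases (10.7% of all tested genes), 2 of them in each experiment alone. The count was 2 with no experiment covariate, where MIXL1 lost the call (log2 fold change 0.83, adjusted p = 0.14) and EOMES was not tested. TBXT, the Brachyury gene, rose from 0 to 0.544 CPM (median 0.111) to 27.9, 26.2, 17.2 and 22.2 CPM, and ACTC1, a cardiac actin, from 0.181 to 1.37 CPM (median 0.357) to 24.2, 22.1, 58.3 and 72.6 CPM. MIXL1 and EOMES were called with overlapping groups, at 2.40 to 20.3 CPM and 28.9, 31.8, 13.5 and 15.4 CPM and at 0.343 to 1.11 CPM and 4.94, 3.48, 0.795 and 4.34 CPM. Of 8 tested neural-associated genes 6 rose, against the same share, among them NES, the nestin gene, from 33.5 to 52.7 CPM to 201, 185, 215 and 213 CPM, PAX6 from 0.279 to 1.11 CPM to 6.52, 6.22, 7.68 and 12.3 CPM and NTS, the neurotensin gene, to 10.6, 9.88, 11.9 and 13.98 CPM, while SOX1 stayed under the filter with at most 0.837 CPM.

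Fibroblast markers were checked because naive cells are often grown on feeder cells. COL1A1 and COL1A2, the collagen I chains, rose from 1.11 to 2.40 CPM to 14.6, 12.4, 15.6 and 13.98 CPM and from 0.363 to 1.56 CPM to 84.6, 81.6, 69.7 and 70.1 CPM, while the defining fibroblast genes COL3A1, LUM, DCN and POSTN did not pass the filter. COL3A1 and LUM each had 1 count in the naive and 1 in the N2B27 libraries. Of the 11 markers 3 were tested (the third, COL5A1, was not called), and their summed level was 5.43 to 9.77 CPM in naive and 87.3 to 103 CPM in N2B27 libraries. What part other cells had in the collagen I values was not tested.

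Genes known from the human embryo at the 8-cell stage, when the genome is first transcribed, were examined as a list. Of 10 listed genes 4 passed the filter (ZSCAN4, TPRX1, TRIM43 and PRAMEF1) and all 4 rose in each experiment, with a median log2 fold change of 3.04 and a summed level of 9.11 to 12.5 CPM in naive and 76.5 to 101 CPM in N2B27 libraries. The share called higher over all tested genes was 10.7% in the pooled fit. TRIM43 went from 2.06 to 4.89 CPM (median 3.48) to 40.03, 41.2, 43.2 and 56.4 CPM, TPRX1, a homeobox gene, from 3.11 to 5.78 CPM (median 5.29) to 23.3, 28.2, 22.5 and 32.5 CPM, and ZSCAN4, a zinc finger gene, from 1.12 to 2.72 CPM (median 1.64) to 8.11, 8.78, 6.89 and 7.95 CPM. DUXA, DUXB, LEUTX, KDM4E, ZSCAN5B and DPRX did not pass, and LEUTX had at most 0.732 CPM. The groups did not overlap for TRIM43, TPRX1 and ZSCAN4. After these values were seen, the pattern was followed into the PRAMEF and TRIM families, to which PRAMEF1 and TRIM43 belong. The MBD3L and RFPL families, which hold no gene of the list, were added.

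Those families are large sets of near-identical copies, so that the assignment of reads to single copies is uncertain and the sum over a family is the safer value. Beside the family counts that follow, 10.7% of all tested genes were called higher. All 9 tested PRAMEF genes rose, from a sum of 8.00 to 21.04 CPM in naive libraries to 94.9 to 113 CPM in N2B27. All 15 tested genes of the TRIM43, TRIM48, TRIM49, TRIM51, TRIM53 and TRIM64 groups, 4 of which carry the names of pseudogenes, rose from 13.1 to 34.8 CPM to 242 to 335 CPM. All 5 tested MBD3L genes rose from 16.1 to 22.3 CPM to 75.1 to 92.1 CPM, and both tested RFPL genes from 0.279 to 2.00 CPM to 13.8 to 19.5 CPM. CCNA1, the cyclin A1 gene, a single-copy gene also known as a target of DUX4 and picked after its value was seen, rose from 12.7 to 16.9 CPM (median 14.9) to 102, 115, 149 and 177 CPM (log2 fold change 3.08 ± 0.14, adjusted p = 5.0e-10). KHDC1L, which is also known from the 8-cell stage, fell from 481 to 829.8 CPM (median 618) to 327, 298, 282 and 299.8 CPM.

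**Figure D3:**
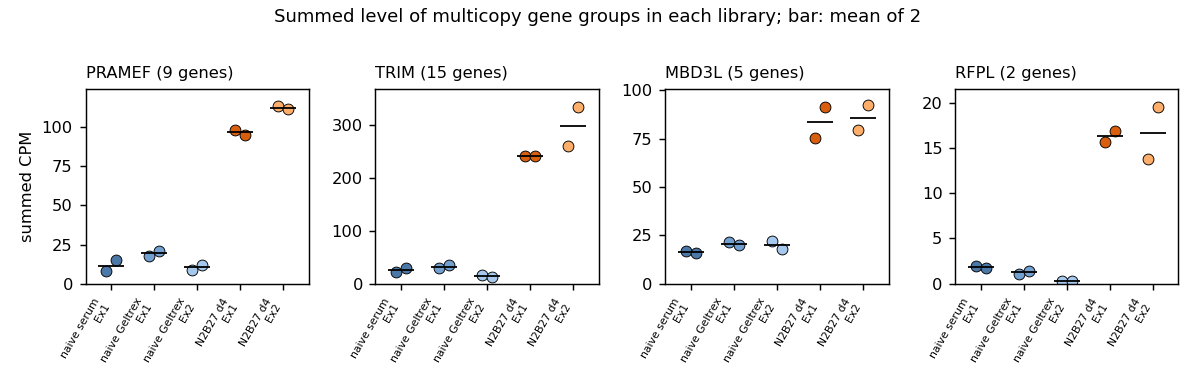
Summed CPM (y axes, from 0) of the tested PRAMEF, TRIM (43, 48, 49, 51, 53 and 64 groups), MBD3L and RFPL genes in each library by group (x axis), with points for libraries and bars for the mean of 2. In all 4 panels the N2B27 libraries of both experiments lie above the 6 naive libraries.

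DUX4, a double homeodomain factor of the 8-cell embryo, is known to bind TAA followed by any 3 bases and AATCA, and the promoters of these families are shown for that motif. It was chosen after the families were seen. Within 250 bases before and 50 after the start of the canonical transcript, 11 of the 31 tested genes of the 4 families held it on either strand, that is 35.5%, beside 62 of the windows of all tested genes (0.491%) and 1.48% of the 60877 windows of all genes. Copies of a family share their sequence, so that these are not independent matches. The motif was not the only one more frequent in these 31 windows than in those of all tested genes. The letters TGANTCA (AP-1, N for any base) stood in 12 (38.7%, beside 4.02%), TATAAA in 51.6% (4.46%) and GGAATG (TEAD) in 29.03% (10.1%). Rarer in them were GGGCGG, GCCNNNGGC, CCGGAAGT, ATTTGCAT, TGACGTCA and the CArG box. Fewer than 10 CpG were found in 96.8%, beside 11.1% of all tested, and the part of base composition was not tested. The sites below are from the RefSeq promoter table (GRCh38.p14), which had 22 of the 31 genes and the motif in 10. Of these 8 are shown, leaving out MBD3L2B and MBD3L4, whose bases are those of MBD3L2 and MBD3L3. Each is printed in the direction of its gene with the motif in capitals and 9 bases on either side.
MBD3L2, chr19:7049245-7049273, plus strand, 67 bases before the start: attatccacTGATTGCATTAtcactccct
MBD3L3, chr19:7058711-7058739, minus strand, 54 bases before the start: attatccacTGATTGCATTAtcactcgct
MBD3L5, chr19:7030478-7030506, plus strand, 91 bases before the start: attatccacTGATTGCATTAtcactcgct
PRAMEF8, chr1:13285320-13285348, minus strand, 202 bases before the start: atgcacatcTAATTTAATCAatgaatcag
TRIM48, chr11:55262000-55262028, plus strand, 146 bases before the start: gagtgatgaTAATTTAATCAgccgtgcaa
TRIM49B, chr11:49028665-49028693, plus strand, 149 bases before the start: gtgtgatgaTAATTTAATCAgagctgcaa
TRIM49D2, chr11:89923861-89923889, plus strand, 194 bases before the start: gagtgatgaTAATTTAATCAgcggtgcaa
TRIM51, chr11:55883069-55883097, plus strand, 219 bases before the start: gtgtgatgcTAATTTAATCAgtgatgaaa
In the MBD3L genes the motif lay on the opposite strand, in the same 20 bases in each copy shown up to the end of the motif, and in the TRIM and PRAMEF8 promoters on the strand of the gene. PRAMEF8 stood at 0.434 to 3.56 CPM in naive and 17.6, 15.7, 14.8 and 20.5 CPM in N2B27 libraries. The windows of TRIM49 and PRAMEF11 had no match, and these genes rose as well, TRIM49 from 1.72 to 7.62 CPM to 31.2 to 39.05 CPM and PRAMEF11 from 2.75 to 7.81 CPM to 29.4 to 41.6 CPM. No window of the 4 tested genes of the 8-cell list held the motif. Binding was not measured here.

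Protocadherins, cell adhesion molecules mostly studied in neurons, were another family picked after the values were seen. Of 14 tested 10 rose and none fell, with a median log2 fold change of 2.17 and a summed level of 35.8 to 43.3 CPM in naive and 199.7 to 228 CPM in N2B27 libraries. PCDH19 went from 0 to 1.74 CPM (median 1.28) to 63.5, 45.2, 75.5 and 72.3 CPM, and PCDH17 went from 0.343 to 2.22 CPM to 13.8, 9.14, 10.6 and 17.1 CPM. Zinc finger genes with ZNF symbols had 11 of 417 tested members higher and 16 lower. Over all tested genes the shares were 10.7% higher and 6.16% lower.

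Of 22 tested genes of glycolysis and pyruvate metabolism 5 rose and 1 fell, beside 10.7% higher and 6.16% lower of all tested genes. HK1, a hexokinase, rose from 18.5 to 27.4 CPM to 257, 266, 219.8 and 230.4 CPM, while its paralogue HK2 stood at 91.6 to 118 CPM and 99.6 to 176 CPM. The glucose transporters SLC2A1 and SLC2A3 rose from 37.96 to 61.8 CPM to 285 to 329.8 CPM and from 228 to 263 CPM to 820.00 to 910.3 CPM, and ENO1, an enolase, from 436 to 668 CPM to 1159.8 to 1296 CPM. Of 12 tested nuclear subunits of cytochrome c oxidase, the last complex of the respiratory chain, 1 was called, beside 16.9% of all tested genes, namely COX7A1 (from 0 to 1.11 CPM to 9.35, 12.1, 14.04 and 7.95 CPM), and the median of the list was -0.52.

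Among 18 tested cell cycle regulators, CCND1, CCND2, CDK6 and RB1 rose (10.7% of all tested genes did) and the other 14 were not called, CCND3 (log2 fold change -0.61), CCNE1 (-0.51), CDK4 (-0.47) and E2F1 (-0.58) among them. The list's median log2 fold change was 0.0112. CCND2, the cyclin D2 gene, went from 0.889 to 5.15 CPM (median 3.95) to 691, 714, 525 and 469 CPM and its kinase CDK6 from 2.40 to 5.78 CPM (median 4.47) to 58.01, 53.04, 48.5 and 52.5 CPM. Of 11 tested p53 targets 1 was called, beside 16.9% of all tested genes, namely RRM2B, a ribonucleotide reductase subunit (from 31.8 to 47.4 CPM to 88.2 to 96.1 CPM), with CDKN1A at 9.33 to 83.5 CPM and 25.6 to 59.8 CPM and MDM2 at 443 to 652 CPM and 408 to 427 CPM. Of 16 tested genes of sterol and fatty acid synthesis 4 rose in the pooled fit (10.7% of all tested genes), HMGCS1, IDI1 and CYP51A1 among them, but none of the 4 was called in each experiment alone. HMGCS1, which starts the mevalonate pathway, was at 266 to 332 CPM in naive cells and at 629, 553, 861 and 918 CPM, with a change of 0.93 in Ex1 and 1.73 in Ex2 (adjusted p of the difference = 0.0015).

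**Figure D4:**
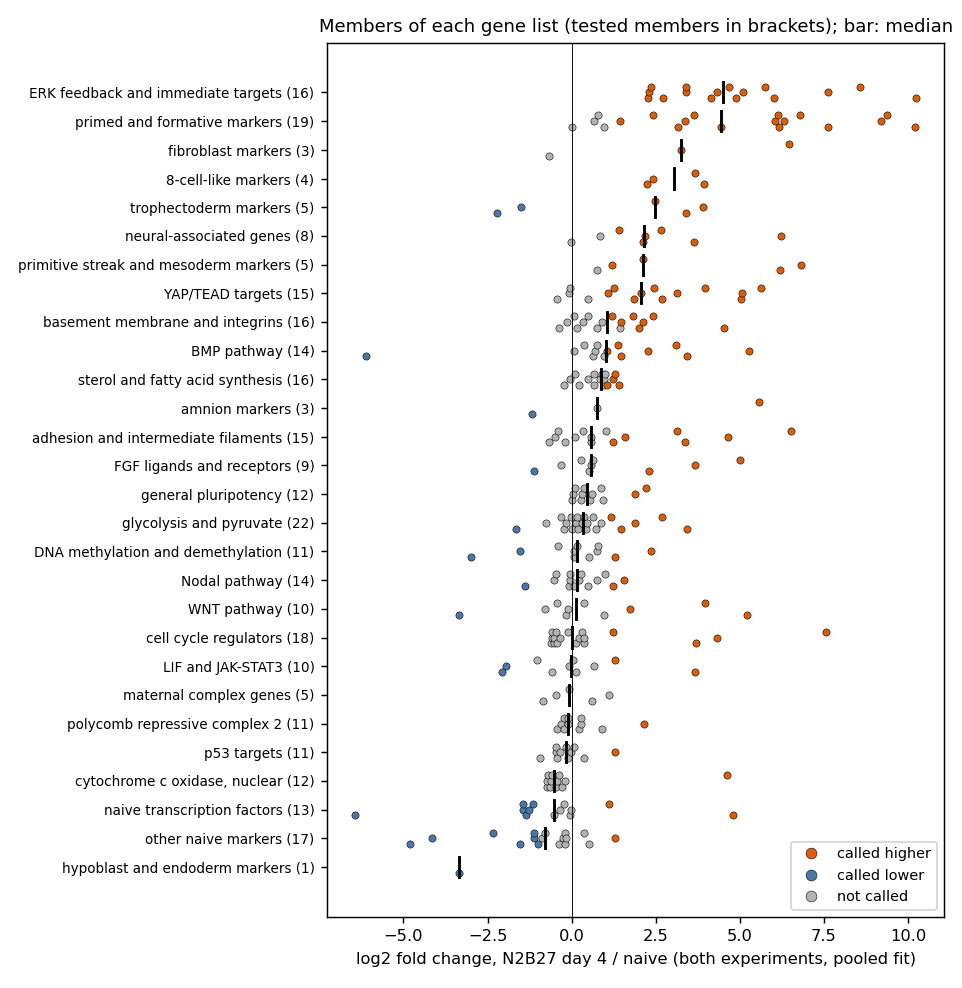
Log2 fold change (x axis, pooled fit) of every tested member of the 28 gene lists (y axis, ordered by median, with the number tested), with points for genes coloured by call and bars for medians. The ERK and formative lists sit farthest to the right, with medians of 4.50 and 4.44, and the naive lists hold members on both sides of 0.

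Among called genes with the same sign in both experiments, a group mean of 20 CPM or more and separate groups, the 12 largest rises were those of SPRY4, PTPRZ1, THY1, SFRP2, DUSP4, NRK, NRN1L, CAV1, NPPB, ABCG2, DUSP6 and CCND2. NRK, a kinase of the germinal centre kinase family, had 5 counts in all naive libraries and 88.3, 81.2, 75.2 and 73.03 CPM in N2B27. NPPB, the natriuretic peptide B gene, had 2 naive counts and 20.1, 17.7, 38.4 and 40.98 CPM, with Ex2 above Ex1, and NRN1L, a relative of neuritin, 1 naive count and 19.2, 24.9, 23.043 and 16.9 CPM. ABCG2, a drug efflux transporter, rose from 0.363 to 0.890 CPM (median 0.623) to 148, 140.3, 101 and 99.1 CPM (log2 fold change 7.66 ± 0.16). The highest naive value among the 12 was 5.15 CPM, of CCND2.

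The 12 largest falls included those of SPIC, BMP2, ITGAM, IRX3, FAM151A, OLAH, DACT2, REEP1, GPNMB, LIPH and ELF3. ITGAM, the integrin αM (CD11b) gene known from myeloid cells, fell from 30.9 to 49.1 CPM (median 46.4) to 1.41, 0.366, 0.795 and 1.45 CPM (log2 fold change -5.34 ± 0.24), and IRX3, an Iroquois homeobox factor, from 48.4 to 98.3 CPM (median 75.5) to 2.29, 1.46, 3.71 and 3.13 CPM. FAM151A, a membrane protein of little known function, fell from 96.2 to 217 CPM (median 146) to 4.76, 3.29, 7.42 and 5.78 CPM. ELF3, an epithelial ETS factor, fell from 60.8 to 93.1 CPM (median 76.9) to 5.47, 7.13, 5.30 and 6.99 CPM, LIPH, a phospholipase, from 26.7 to 44.6 CPM to 2.17 to 3.11 CPM, and GPNMB, a transmembrane glycoprotein, from 38.5 to 50.96 CPM to 2.38 to 3.37 CPM. OLAH, which releases fatty acids from fatty acid synthase, DACT2, a Dishevelled-binding protein, and REEP1, which shapes the endoplasmic reticulum, fell by 4.14, 4.13 and 4.05 on the log2 scale.

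The promoters of the genes called were read for their base composition and for a few motifs, as a description with no test. Promoter windows (250 bases before to 50 after the start, hg38) could be read for 91.0% of the genes called higher, 88.0% of those called lower and 88.7% of all tested. Fewer than 10 CpG were found in 15.3% of the windows of genes called higher, in 20.7% of genes called lower and in 11.1% of all tested. The letters CCGGAAGT, an ETS site, on either strand stood in 1.29%, 2.07% and 8.69%, the TATA box letters TATAAA on the gene's strand in 7.76%, 5.57% and 4.46%, and the octamer ATTTGCAT in 1.44%, 1.30% and 1.31%. Genes with under 10 CpG had a median of 7.44 CPM on their higher side, those with 10 to 19 of 22.1 CPM, those with 20 to 29 of 36.1 CPM and those with 30 or more of 31.4 CPM, so that the class with the fewest CpG was also the lowest in level. The part of level in these shares was not tested.

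The change differed between the experiments for 1439 genes (10.1% of those tested, adjusted p under 0.05 and a difference above 1 on the log2 scale), 645 with a more positive change in Ex2 and 794 with a less positive one. The count fell to 874, 861 and 938 without N2B27 Ex1 replicate 2, N2B27 Ex2 replicate 2 and naive Ex2 replicate 1. Of the pooled calls 14.5% (348 genes) were among them. For 77.6% of the 1439 the naive libraries of the experiments lay farther apart than the N2B27 libraries, where 63.3% of all tested genes did so, and the median absolute log2 difference between experiments was 0.905 for naive and 0.474 for N2B27 libraries.

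The 6 genes with the smallest p for the difference and at least 10 CPM in a group were DNAJA1, HSPA8, EML2, P4HA1, SERPINB9 and NDRG4. DNAJA1, a cochaperone of HSP70, had means of 314 and 292 CPM in the naive groups of Ex1 (serum, Geltrex) and of 105 CPM in that of Ex2, and of 250.5 and 347 CPM in N2B27 of Ex1 and Ex2, so that its change was -0.27 in Ex1 and 1.71 in Ex2 (difference 1.99 ± 0.16, adjusted p = 5.6e-06). HSPA8, the constitutive HSP70, had 1148, 1051 and 411 CPM in the naive groups and 1261 and 1446 CPM in N2B27. SERPINB9, an inhibitor of granzyme B, followed the same order, with 489, 438 and 181 CPM in naive groups. In all 3 the Ex2 naive libraries were the low ones.

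P4HA1, a prolyl hydroxylase of collagen, ran the other way, with 105, 133 and 206 CPM in the naive groups and 222 and 86.1 CPM in N2B27, a change of 0.90 in Ex1 and -1.25 in Ex2. NDRG4 and EML2 were highest in the Ex2 naive libraries, at 76.7 and 326 CPM, against 30.9 and 133 CPM on Geltrex in Ex1. LDHA, lactate dehydrogenase A, changed by 0.92 in Ex1 and by -1.07 in Ex2 (difference -1.98 ± 0.24, adjusted p = 1.0e-04).

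After these genes were seen, 2 groups were set out around them. Of 15 tested heat shock genes none was called in the pooled fit, but 7 were called in the difference (10.1% of all tested genes were), all 7 with a more positive change in Ex2, and the median change was -0.08 in Ex1 and 0.34 in Ex2. DNAJA1 and HSPA8, around which the group was set out, are among the 7, so that part of this count was fixed beforehand. HSPH1, another of them, had 685, 654 and 275 CPM in the naive groups and 560.5 and 613 CPM in N2B27. Of 17 tested genes that respond to low oxygen 9 were called in the difference, beside the same 10.1%, all 9 with a less positive change in Ex2 and P4HA1 and LDHA, seen first, among them, with a median change of 0.90 in Ex1 and -0.20 in Ex2. Their summed mean level was 1145 and 1502 CPM in the naive groups of Ex1 and 2248 CPM in that of Ex2, and 2466 and 1516 CPM in N2B27 of Ex1 and Ex2. PDK1, which holds pyruvate back from mitochondria, changed by 1.56 and -0.67, and BNIP3, a mitophagy receptor, by 1.57 and -0.20. VEGFA and KDM3A, of the same group, differed by -0.80 ± 0.19 and -0.77 ± 0.18, below 1 in size. Naive cells on serum coating were present in Ex1 only. With naive cells on Geltrex alone 1292 differences were called, and those of DNAJA1 (1.95), HSPA8 (1.57), P4HA1 (-1.97) and EML2 (-2.05) were among them. Anything else that differed between the experiments cannot be told apart from the experiment itself.

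**Figure D5:**
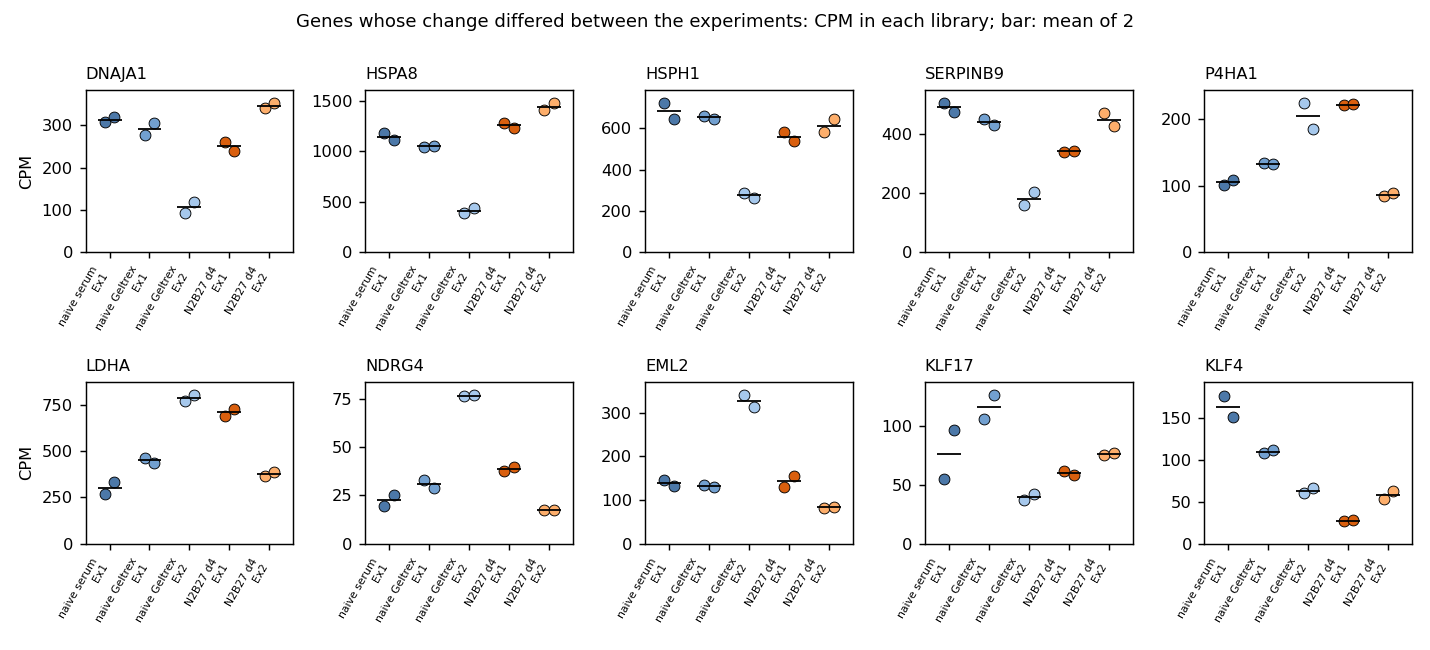
CPM (y axes, from 0) of 10 genes whose change differed between the experiments, in each library by group (x axis), with points for libraries and bars for the mean of 2. In DNAJA1, HSPA8, HSPH1 and SERPINB9 the Ex2 naive libraries are the lowest of all, in NDRG4 and EML2 they are the highest, and in KLF4 the naive groups fall from 163 to 62.8 CPM.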

How the data were processed

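RNA of 38 libraries was sequenced by QuantSeq 3′ mRNA-seq, and the authors deposited 1 table of estimated counts per gene (57133 genes), given as whole numbers with no normalization. Per the labels and the study's methods the reads were processed with nf-core rnaseq 3.10.1 (STAR 2.7.10a, Salmon 1.9.0, hg38), and gene counts were made with tximport 1.26.1. The estimated counts were taken as they stood.

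For the 10 libraries described, genes with low counts were removed (edgeR filterByExpr, 14245 kept with 99.4% of the counts), libraries were scaled by TMM and the edgeR 4.0.16 quasi-likelihood test (R 4.3.3) was fitted with state and experiment. A second fit with 1 level per state and experiment gave each experiment's change and their difference. P-values were adjusted by Benjamini-Hochberg over all genes tested, and a call needed 0.05 and an absolute log2 fold change above 1. The biological coefficient of variation was 14.5%. A floor of 3 counts came to 0.529 to 1.03 CPM, and intervals of count ratios (95%, exact) cover counting error only. The scripts were tested on simulated data.

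Named genes were the 12 largest rises and falls (at least 20 CPM), fixed and leading members of each list (at least 10 CPM), and the 6 genes with the smallest p for the difference, and others named were chosen after their values were seen. The comparison and the lists were chosen with earlier results of these data known. Gene positions are from GENCODE release 44 by symbol (GRCh38). Promoter shares used hg38, and printed sites RefSeq's table (GRCh38.p14). CCN1 and CCN2 are listed as CYR61 and CTGF. Alternatives were another scaling (RLE, plain totals), other filters, DESeq2 1.42.0, all 38 libraries, naive cells on Geltrex only, no covariate, the replicate number as a block, and each library left out. Multicopy genes share reads. A few genes are not reported here. Genes of the X and Y chromosomes were not examined as groups.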

Additional observations from a re-analysis of the deposited data

Results flagged for a closer look

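Among the named genes with a mean of at least 10 CPM in N2B27 or naive cells, the following had a log2 fold change that differed between the experiments, each given with the difference, Ex2 minus Ex1, by the edgeR test of that difference. The change was more positive in Ex2 for ETV5 (2.69), GATA3 (2.35), KLF4 (2.21), DNAJA1 (1.99), ID1 (1.98), SERPINB9 (1.75), KLF2 (1.71), HSPA8 (1.62), KLF17 (1.61), IRX3 (1.48), HSPH1 (1.41), PRAMEF11 (1.28), CYR61 (1.22), SALL4 (1.20), TRIM49 (1.16), REEP1 (1.08), IDI1 (1.07) and DNAJB1 (1.04). It was less positive in Ex2 for NDRG4 (-2.65), PDK1 (-2.22), P4HA1 (-2.15), EML2 (-2.03), LDHA (-1.98), CRABP1 (-1.92), BNIP3 (-1.77), CCND2 (-1.48), SFRP1 (-1.42), CDKN1A (-1.37) and ALPG (-1.27). Which condition of the 2 experiments goes with these differences was not tested. Of these 29 differences, 16 kept the call in each of the 18 other settings run on a difference. The number of settings that lost the call was 10 for TRIM49, 9 for ETV5, 6 for CCND2, 6 for KLF2, 6 for REEP1, 5 for IRX3, 4 for PRAMEF11, 3 for CDKN1A, 2 for DNAJB1, 2 for GATA3, 2 for IDI1, 1 for CYR61 and 1 for SALL4. ETV5 ran from 1.96 to 5.43 over these settings and TRIM49 from 0.68 to 2.13.

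Among 295 groups of libraries tested, 11 (3.73%) held a library that stood apart from the others of its group by Dixon's criterion, where chance gives about 1 in 20 such groups. A library was high for DPPA2 (37.2 CPM in naive Geltrex Ex1 replicate 2, group median 24.2 CPM), IL6ST (86.5 CPM in naive serum Ex1 replicate 1, group median 61.02 CPM), PIM1 (204 CPM in naive Geltrex Ex2 replicate 1, group median 122 CPM), POU5F1 (563 CPM in naive serum Ex1 replicate 1, group median 377 CPM), RRM2B (47.4 CPM in naive Geltrex Ex2 replicate 1, group median 34.8 CPM) and SLC2A3 (263 CPM in naive Geltrex Ex1 replicate 1, group median 233 CPM) among naive libraries. Among N2B27 libraries one was high for EZH2 (209 CPM in N2B27 Ex1 replicate 1, group median 179 CPM), GATA3 (32.5 CPM in N2B27 Ex2 replicate 2, group median 25.3 CPM) and RFPL2 (15.9 CPM in N2B27 Ex2 replicate 2, group median 11.9 CPM). A library was low for TFAP2C (323 CPM in naive serum Ex1 replicate 1, group median 444 CPM) and ZFP57 (44.2 CPM in N2B27 Ex2 replicate 1, group median 48.3 CPM).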

How the results depend on the processing

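Of the 2406 genes called, none changed sign in any of the 19 other settings, and the count ran from 2217 (no experiment covariate) to 3456 (no filter), with 2357 to 2573 when 1 library was left out. DESeq2 gave 2393. Without a filter 2314 genes were called higher, where 34733 genes were tested instead of 14245. Among the gene lists 107 to 121 members were called higher and 23 to 25 lower, where the values above were 111 and 24. The difference between experiments was the least stable count, at 976 by DESeq2 and 861 to 1560 with 1 library left out, lowest without N2B27 Ex2 replicate 2 and also low without N2B27 Ex1 replicate 2 (874) and naive Ex2 replicate 1 (938). The cause was not tested.

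Signs turned only for uncalled genes near 0. With naive cells on Geltrex alone the log2 fold change was 0.0614 for IL6ST (-0.07 in the fit above), -0.20 for LDHA (0.13) and -0.22 for P4HA1 (0.07). KLF17 (-0.02) was at 0.0018 with plain totals, 0.0459 by DESeq2 and 0.0040 with the replicate block. With 1 library left out IL6ST ran from -0.14 to 0.0244, KLF17 from -0.23 to 0.24, LDHA from -0.0932 to 0.38 and P4HA1 from -0.15 to 0.33. Over 3972 values of 178 genes 3841 kept their direction and side of the threshold, 84 lost the call, 26 gained it and 21 turned.

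The correlations of replicate differences between groups ran from -0.08 to 0.20, the highest being that of the serum and Geltrex naive groups of Ex1. Whether replicate numbers pair the libraries cannot be decided from these values. With the replicate block 2386 genes were called in the comparison and 1332 in the difference between experiments. The smallest library held 3038046 counts, and 3 counts stood for 0.529 to 1.03 CPM, so that a fold against a lower level is only a bound.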
